A study of Arabidopsis thaliana with 4 samples.

Results

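The genes described are 4 calmodulin-like calcium sensor genes of Arabidopsis thaliana, namely CML30 (AT2G15680), CML42 (AT4G20780), CML43 (AT5G44460) and AT3G01830, out of 22746 gene probe sets on the ATH1 array. They were chosen by name, with values of these same 4 arrays in view, so their values are given as a description and no test is attached to them. Each was represented by 1 probe set, and all 4 probe sets were measured, that is, above an intensity floor (scaled intensity 28.0) on at least 1 array. The study compared wild type of accession Ws-2 with the ku80 line, which carries a T-DNA insert in AT1G48050 in the Ws-2 background, each untreated or given bleomycin at 1 mg per litre for 3 days. Bleomycin is a drug that breaks DNA, and KU80 belongs to the Ku complex, which holds broken ends for non-homologous end joining. All plants were whole plants at growth stage 1.06, kept at 23 °C under 16 hours of light, and each of the 4 groups was 1 array of RNA pooled from 20 plants. A single pool per group gives no spread between plants or pools, and no probe set in the tables used was paired with KU80, and loss of the KU80 transcript was not checked.

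Calmodulin-like proteins bind calcium ions through EF-hand motifs and change shape when the calcium level of the cell rises. Plant cells produce brief calcium rises after wounding, cold, touch, attack by microbes and oxidative stress, and these sensors pass the signal on by binding other proteins. Plants carry many such genes beside the conserved calmodulins, and transcripts of several are known to change quickly and briefly after stress. CML42 is known from work on leaf hair branching and on defence against insects, CML43, its close relative, from responses to bacteria, and CML30 encodes a protein reported in mitochondria. AT3G01830 is annotated as a gene for a calmodulin-like calcium-binding protein.

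The arrays differed among themselves in the spike-in controls. Over 9 probe sets, the median ratio to untreated wild type was 1.67 in wild type with bleomycin, 1.82 in untreated ku80 and 1.32 in ku80 with bleomycin. Untreated wild type was thus the dimmest array in these controls and treated ku80 the next dimmest. The 3' to 5' ratio, a sign of RNA integrity, was 1.09 to 1.19 for GAPDH and 1.24 to 1.38 for actin. For ubiquitin it was 1.17 and 1.21 on the wild type arrays without and with bleomycin, and 1.42 and 1.53 on the ku80 arrays. The part of these differences in the results below was not tested.

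AT3G01830 had the widest range of the 4 genes over the arrays. Its scaled intensity was 191 in untreated wild type, 435 in wild type with bleomycin, 176 in untreated ku80 and 51.0 in ku80 with bleomycin. The treated wild type array was the highest and the treated ku80 array the lowest, while the untreated arrays of both genotypes lay close together. With bleomycin the level was thus 2.27-fold higher in wild type (log2 1.18) and 3.44-fold lower in ku80 (log2 -1.78). In whole plants, fewer cells that express a gene and less RNA per cell cannot be told apart. Under bleomycin, ku80 was 8.53-fold below wild type (log2 -3.09), and 2 other measured probe sets of 15336 lay as low in that comparison. Without the drug the genotypes differed by only 1.09-fold (log2 -0.12), and 36.9% of the other measured probe sets were at least as low. AT3G01830 was chosen with these arrays in view, so nothing is read from its place among all probe sets in either comparison.

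**Figure D1:**
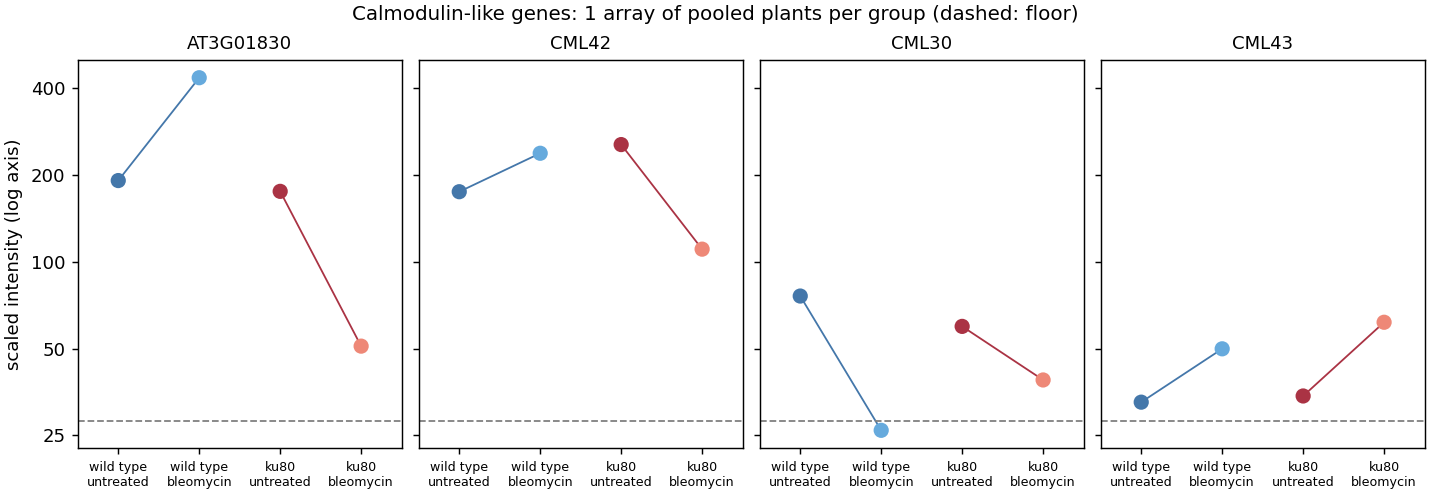
Scaled intensity (log axis) of AT3G01830, CML42, CML30 and CML43 on the 4 arrays, 1 point per array of 20 pooled plants, with a line joining the untreated and the treated array of a genotype and a dashed line at the floor of 28.0. AT3G01830 goes from 191 to 435 in wild type and from 176 to 51.0 in ku80, and heights are not to be compared between genes, since probes of different genes differ in brightness.

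CML42 had the same directions with bleomycin as AT3G01830, at a smaller size. Its scaled intensity was 175 in untreated wild type, 238 in wild type with bleomycin, 255 in untreated ku80 and 111 in ku80 with bleomycin. Treated ku80 was again the lowest array, but here the highest was untreated ku80, 1.46-fold above untreated wild type (log2 0.54). Bleomycin arrays were 1.36-fold higher in wild type (log2 0.44) and lower in ku80, at a log2 difference of -1.20. The wild type difference was near the median absolute difference of all measured probe sets in that comparison (0.41). Under the drug, ku80 was 2.15-fold below wild type (log2 -1.10).

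CML30 was lower with bleomycin in both genotypes. Its scaled intensity was 76.1 in untreated wild type, 26.0 in wild type with bleomycin, 59.7 in untreated ku80 and 38.9 in ku80 with bleomycin. The treated wild type value lay below the floor, so the gene was at least 2.72-fold lower there (log2 -1.44 or below), against 1.53-fold lower in ku80 (log2 -0.62). Untreated ku80 was 1.27-fold below untreated wild type (log2 -0.35). Under bleomycin ku80 was at least 1.39-fold above wild type (log2 0.48 or above). This gene lay near the floor, and with a higher floor (the 60th percentile of scaled values) its differences with bleomycin shrank to -0.26 in wild type and 0.00 in ku80.

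CML43 was higher with bleomycin in both genotypes, by less than 2-fold. Its scaled intensity was 32.6 in untreated wild type, 49.9 in wild type with bleomycin, 34.2 in untreated ku80 and 61.7 in ku80 with bleomycin. Both untreated arrays were the lowest and nearly level, at a difference of 1.05-fold between genotypes (log2 0.07). With the drug it was 1.53-fold higher in wild type (log2 0.61) and 1.80-fold higher in ku80 (log2 0.85). Treated ku80 was 1.24-fold above treated wild type (log2 0.31). All values of CML43 were dim, and under the higher floor all its differences became 0.00.

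The 4 genes therefore followed different patterns. As a measure of likeness, the Euclidean distance between their mean-centred log2 values over the 4 arrays was 1.49 between CML42 and AT3G01830 and 2.62 between CML43 and AT3G01830. CML30 was 1.44 from CML42, 1.79 from CML43 and 2.63 from AT3G01830 with its treated wild type value set to the floor, so these 3 distances are not exact and were not ranked against the others. CML42 and its close relative CML43 were 1.53 apart and opposite in the treated ku80 plants, where CML42 was lower and CML43 higher than without the drug. The distances of CML43 rest on dim values, and its ku80 difference became 0.00 with the floor at the 60th percentile.

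Counted at 2-fold, the 4 genes gave the following numbers, from which nothing is read because these arrays were in view when the genes were chosen. With bleomycin in wild type, 1 of 4 was higher (AT3G01830), where 5.55% of 15336 measured probe sets were, and 1 was lower (CML30), where 8.37% were. In ku80, 0 of 4 were higher (2.49% of all) and 2 were lower (AT3G01830 and CML42, 5.6% of all). Between untreated genotypes 0 of 4 were higher in ku80 (2.53% of all) and 0 were lower (2.09% of all). Between treated genotypes 0 of 4 were higher in ku80 (1.85% of all) and 2 were lower, again AT3G01830 and CML42 (2.35% of all). The median over the 4 genes was 0.53 with bleomycin in wild type, -0.91 in ku80, -0.03 between untreated genotypes and -0.40 between treated ones, while the median of all measured probe sets was 0.00 in each.

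**Figure D2:**
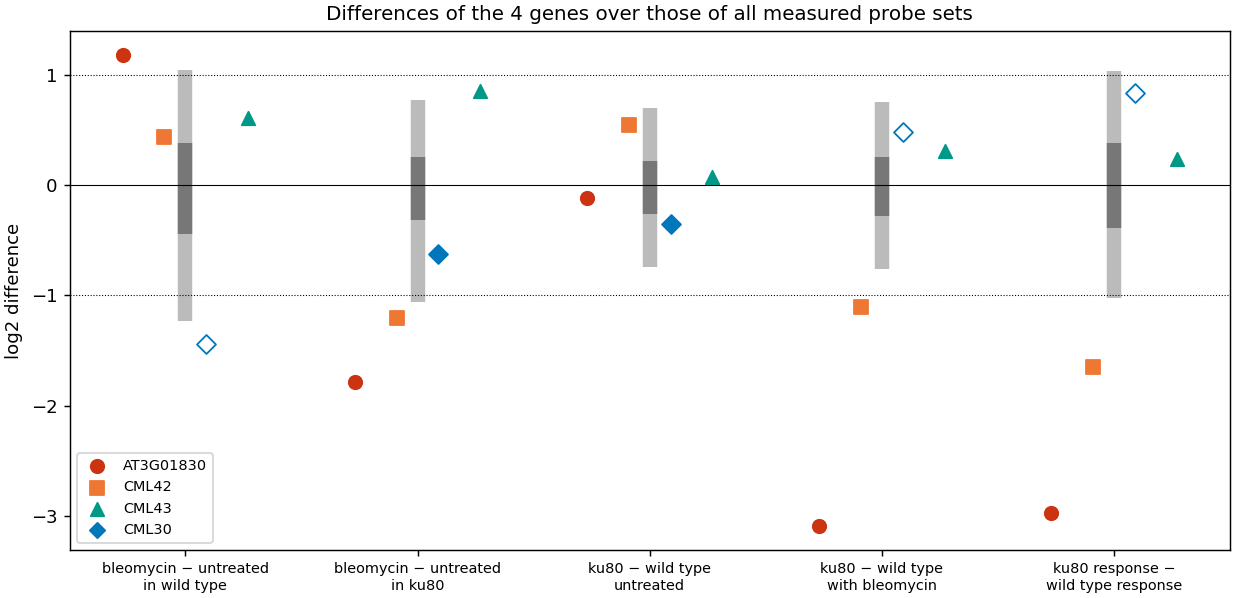
Log2 differences of the 4 genes (symbols; open where a value at the floor makes the difference a bound or a value that rests on one) in the 4 pairwise comparisons and for the difference between the responses. Grey bars span the 5th to the 95th percentile (light) and the 25th to the 75th percentile (dark) of all 15336 measured probe sets, dotted lines mark 2-fold, and AT3G01830 lies outside the light bars at -3.09 under bleomycin and inside them at -0.12 without it.

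The difference between the genotypes' responses to bleomycin, ku80 minus wild type on the log2 scale, was -2.97 for AT3G01830, -1.65 for CML42, 0.24 for CML43 and 0.83 for CML30, the last resting on a value at the floor. It was at most -1 for 2 of the 4 genes, against 5.37% of measured probe sets, and at least 1 for 0 of 4, against 5.41%. Of the measured probe sets 35 (0.228%) were past 2-fold in both genotypes, higher in treated wild type and lower in treated ku80, and AT3G01830 was among them. This pattern was taken from AT3G01830 itself, so its place among the 35 was given and nothing is read from the share. With 1 array per group the difference between responses leaves no residual and was not tested. The balance of directions over all probe sets depended on the scaling: on the values as deposited 62.8% of the differences of responses past 2-fold were positive, against 50.2% here, and between treated genotypes 57.2% were higher in ku80, against 44.0% here. On the deposited scale AT3G01830 and CML42 kept the signs given above in all comparisons.

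The pathway around these genes was followed with a list of 228 calcium signalling genes, drawn up by locus identifier from general knowledge. Earlier results of these data were known when the list was made, so its counts, medians and calls are not independent of them. The 228 genes covered calmodulins and calmodulin-like genes, other EF-hand sensors, calcium-dependent kinases, channels, pumps, and transcription factors that bind calmodulin. Of these, 53 were named on the array here and 40 were measured, which leaves 36 beside the 4 genes. They comprised 22 calmodulin-like genes, 2 small EF-hand genes, 6 glutamate receptor-like channel genes and 6 genes for calmodulin-binding transcription factors. No gene of the calmodulin, CBL, kinase, cyclic nucleotide-gated channel, pump, exchanger, annexin or MLO groups was named here, so these were not analysed.

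Among the 22 other calmodulin-like genes, wild type with bleomycin had 5 at least 2-fold higher and 1 lower, and these were also 5 of 36 higher in the whole list, which had 2 of 36 lower. The shares of all measured probe sets were 5.55% and 8.37%. AT2G41090 went from a scaled intensity of 471 in untreated to 1859 in treated wild type (3.95-fold higher), and in ku80 from 905 to 1291 (1.43-fold higher). AT5G39670 went from 96.9 to 332 in wild type (3.43-fold higher), and from 167.5 to 186 in ku80 (1.11-fold higher). CML41, whose product is known to act at the channels between plant cells, went from 83.9 to 229 in wild type (2.73-fold higher), and from 143 to 185 in ku80 (1.29-fold higher). These 3 genes shared an order in which untreated wild type was lowest, untreated ku80 came next and treated wild type was highest.

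AT3G47480 lay below the floor in untreated wild type and at 147 with the drug (at least 5.27-fold higher), and at 81.5 and 150 in ku80 (1.84-fold higher). AT4G26470 was also below the floor in untreated wild type (27.7) and at 71.0 with the drug (at least 2.54-fold higher), with 44.3 and 69.1 in ku80. The gene lower by 2-fold was AT3G25600, at 450 and 219.5 in wild type (log2 -1.04) and at 435 and 399 in ku80 (log2 -0.12). Its level was near even on the other 3 arrays. The second gene of the list past 2-fold lower, AT2G18750, of the calmodulin-binding transcription factor group, was at 56.9 in untreated wild type and below the floor in treated wild type (at least 2.04-fold lower), with 59.9 and 50.6 in ku80.

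CML37 and CML38, known as stress-induced members of the family, were the 2 of 22 (and 2 of 36 in the list) that were at least 2-fold lower with bleomycin in ku80, and none of the 36 was 2-fold higher. Of all measured probe sets 5.6% were lower and 2.49% higher there, so 2 of 36 is near the overall share. CML37 was at 106 in untreated wild type, 145.5 in wild type with bleomycin, 91.8 in untreated ku80 and below the floor, at 21.1, in ku80 with bleomycin. It was thus at least 3.28-fold lower with the drug in ku80 (log2 -1.71 or below) and 1.37-fold higher in wild type. CML38 was at 525 in untreated wild type, 617 in wild type with bleomycin, 676 in untreated ku80 and 278 in ku80 with bleomycin (log2 0.23 in wild type and -1.28 in ku80). In both genes treated ku80 was the lowest array, as in AT3G01830 and CML42.

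The same 2 genes were the ones at least 2-fold lower in ku80 than in wild type under bleomycin, CML37 by at least 5.20-fold and CML38 by 1.15 on the log2 scale, and 0 of 36 were higher, where 2.35% of all measured probe sets were lower and 1.85% higher. Of the 22 calmodulin-like genes 13 were lower in ku80 in that comparison, 7 higher and 2 at the floor on both arrays, with a median of -0.24, while 49.0% of all measured probe sets were lower. The 2 small EF-hand genes AT2G46600 and AT4G27280 lay at -0.62 and -0.93 there, and the 6 calmodulin-binding transcription factor genes had a median of 0.45, so the groups of the list did not share a direction. The median of the 22 between treated genotypes depended on the processing. It was -0.15 on the deposited values, -0.16 under quantile normalization, and -0.39 and -0.08 with the floor at the 20th and the 60th percentile. Between untreated genotypes 1 of 36 was 2-fold higher in ku80 (AT3G47480, at least 2.91-fold) and 0 were called lower, near the 2.53% and 2.09% of all measured probe sets, and the median of the 22 was 0.06.

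The other 14 of the 22 calmodulin-like genes were not called at 2-fold in any pairwise comparison. For 3 of them (AT3G59440, AT1G76640 and AT3G24110), below the floor on 2 or 3 arrays, pairwise differences were mostly bounds or had both values at the floor. The exception was AT3G24110 in ku80, at 34.0 without and 31.3 with the drug (log2 -0.12). AT1G76640, at 31.1 in untreated wild type, was below the floor on the other 3 arrays. The 11 above the floor on all 4 arrays ranged from -0.52 to 0.97 with bleomycin in wild type and from -0.34 to 0.46 in ku80, on the log2 scale. Between genotypes they ranged from -0.84 to 0.20 without the drug and from -0.95 to 0.49 with it. The highest of the 11 with bleomycin in wild type was AT2G41410, which went from 820 to 1611 in wild type and from 941 to 1298 in ku80, and the lowest in treated ku80 against treated wild type was AT1G18210, which went from 714 to 1100 in wild type and from 708 to 569 in ku80. CML23 was at 156 in untreated wild type, 235 in treated wild type, 163 in untreated ku80 and 169 in treated ku80.

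**Figure D3:**
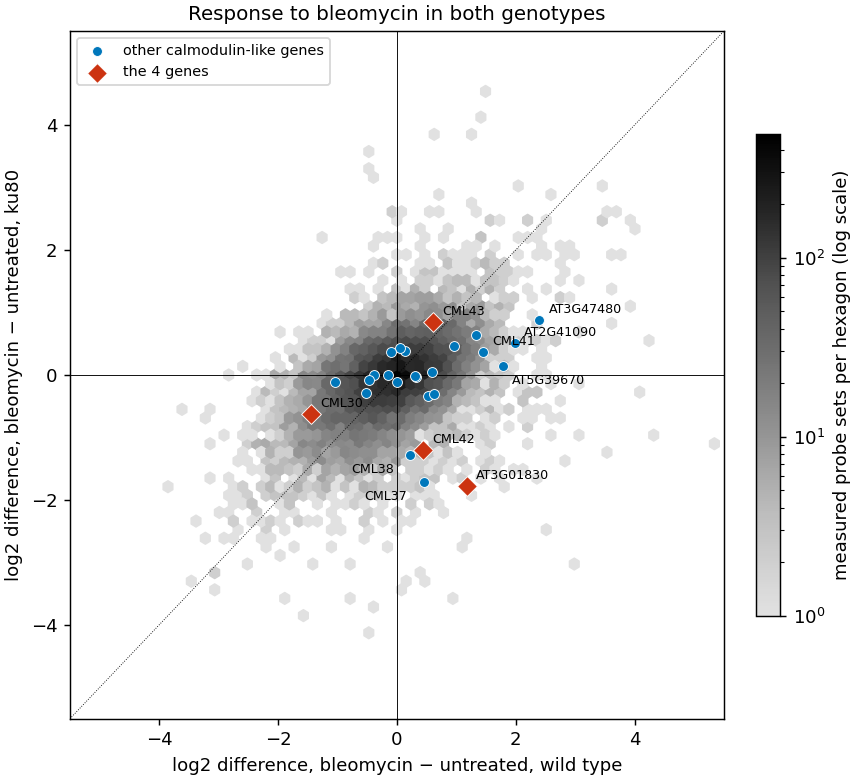
Log2 difference with bleomycin in wild type (horizontal) against ku80 (vertical) for all 15336 measured probe sets (grey hexagons, shaded by number), the 22 other calmodulin-like genes (blue) and the 4 genes (red). AT3G01830, CML42, CML37 and CML38 lie at the lower right, right of 0 in wild type and at -1.20 or below in ku80, while AT3G47480, AT2G41090, AT5G39670 and CML41 lie at the right, above 1.4 in wild type and between 0.15 and 0.88 in ku80.

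Expressed as the difference between responses, 6 of the 22 calmodulin-like genes, which were also 6 of the 36 of the list, lay at -1 or lower, and 0 of 36 lay at 1 or higher. The shares of all measured probe sets were 5.37% and 5.41%, and the median of the 22 was -0.43 against 0.00 for all. That median depended on the processing. It was -0.32 on the deposited values (0.09 for all) and -0.26 under quantile normalization (0.01 for all). With the floor at the 20th and the 60th percentile it was -0.43 and -0.08. The 6 were CML37 (-2.17, resting on a floor value), AT5G39670 (-1.63), AT3G47480 (-1.52, resting on a floor value), CML38 (-1.51), AT2G41090 (-1.47) and CML41 (-1.07). For CML37 and CML38, as for AT3G01830 and CML42, the genotypes differed more under the drug than without it. For AT3G47480, AT2G41090 and CML41 they differed more without the drug, where wild type was the lower one. AT5G39670 had differences of 0.79 without and -0.84 with the drug. Both kinds of pattern give a negative difference of responses, and both rest on single arrays. Untreated wild type was the dimmest array in the spike-in controls and treated ku80 the next dimmest. The part of this in either pattern was not tested.

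**Figure D4:**
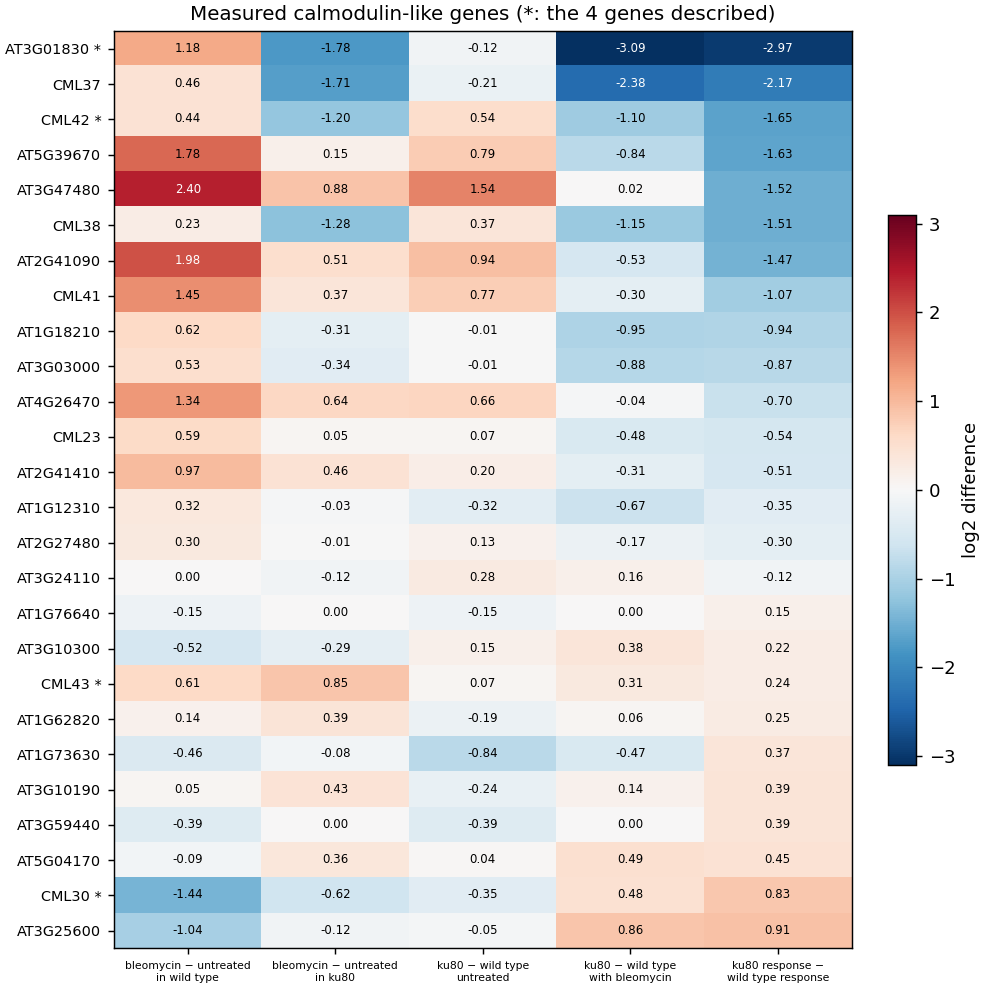
Log2 differences of the 26 measured calmodulin-like genes (rows, ordered by the difference between responses, the 4 genes marked with an asterisk) in the 4 pairwise comparisons and for the difference between responses (columns), with red for higher and blue for lower. The rows range from AT3G01830 at -2.97 to AT3G25600 at 0.91, and values that involve the floor are printed as computed with it.

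An additive fit over all 4 arrays with limma, which takes genotype and bleomycin as separate effects and uses the difference between responses as its only residual, was read for the 36 genes other than the 4. For bleomycin, limma with Benjamini-Hochberg adjustment over 15336 probe sets called 1 of 36, AT3G47480, which rose by 1.64 on the log2 scale (SE 0.38, adjusted p = 0.0156) and was higher with the drug in both genotypes. It called 0 of 36 that fell, and 5 of 36 had an unadjusted p under 0.05 in either direction, against 20.7% of all probe sets. Of all probe sets 2.23% rose and 4.59% fell in this fit. For genotype limma called 0 of 36 in either direction, with 1 at an unadjusted p under 0.05 against 6.92% of all probe sets, where 0.143% of all probe sets rose and 0.104% fell. The call of AT3G47480 rests on a floor value in untreated wild type, and it was lost under quantile normalization, without the intensity trend and with bleomycin as the only factor. AT4G26470, AT2G41090, CML41 and AT5G39670, all higher with the drug in both genotypes, had adjusted p-values of 0.0661, 0.0864, 0.0937 and 0.102 in the limma fit and were not called.

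Over the 4 arrays, the named genes most like AT3G01830 were AT1G05575, AT1G58420, AT2G25735, AT3G02840 and AT2G22880, at distances of 0.63 to 0.85 among 6314 candidate probe sets. The nearest, AT1G05575, went from 261.5 to 402 in wild type and from 278 to 80.3 in ku80 when the drug was given. All 5 were higher with the drug in wild type, by 0.10 to 1.78 on the log2 scale, and lower in ku80, by log2 differences of -1.83 to -1.34. The 5 were picked for likeness over these same arrays, so nothing is read from the shared directions. CML37, which lies at the floor on 1 array and so was no candidate, was 0.61 away.

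The genes most like CML42 were AT1G19380, CML38, AT5G10695, AT1G16000 and AT1G69890, at distances of 0.15 to 0.25, with CML38 at 0.19. CML38 was thus nearer to CML42 than any other of the 22 calmodulin-like genes, of which the next was AT3G03000 at 0.64. The genes most like CML43 were EXLA1, which encodes an expansin-like protein, AT5G03905, AT1G61670, AT5G11720 and AT1G22570, at 0.02 to 0.09. Those most like CML30 were AT5G09820, AT5G23380, AT5G40830, AT5G55220 and AT3G15640, at 0.02 to 0.13 among 7047 candidates, with the treated wild type value of CML30 set to the floor, so these distances and their order rest on it. For CML30 and CML43 the nearest calmodulin-like genes were AT3G25600 (0.57, resting on the same floor value) and AT2G41410 (0.45). All distances come from the same 4 arrays and are a description only.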

How the data were processed

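The authors deposited linear intensities for 22810 probe sets on each array. With 2% trimmed from each end, every array averaged 100.01, so these had been scaled before deposit. Per the labels, scanner background averaged 95.8 for untreated ku80 and 105.06 to 107.28 on the other arrays; the probe summary software was not given in the sources used here. The 64 control probe sets were set aside. Arrays were divided by 1.02, 0.976, 1.00 and 1.04 (wild type, wild type with bleomycin, ku80, ku80 with bleomycin), their median ratio to the geometric mean over the brighter 50% of probe sets. Values below the 40th percentile of scaled values (28.0) were raised to it before log2, and folds against it are lower bounds. Between 59.3% and 60.6% of probe sets lay above it per array.

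Names came from the platform annotation and a RefSeq gene table (TAIR10.1): 13513 carried 1 gene, 503 several and 8730 none here, and 13436 matched. The additive fit used limma 3.58.1 in R 4.3.3 (intensity trend, Benjamini-Hochberg at 0.05), with 1 residual and a median of 15.9 prior degrees of freedom, so its errors are mostly borrowed from other probe sets, and its p-values reflect no spread between separate plant pools. The fit was also run on simulated arrays with purely additive effects and noise drawn from its own error estimate. That run checked the code and cannot show whether the p-values hold on the real arrays. Differences of at least 2-fold were counted without a test.

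Members, list and rules were chosen with earlier results of these data known. Named genes were the 4 genes, the other measured calmodulin-like genes, other list genes past 2-fold or called by limma, and the 5 named genes most alike to each of the 4 by distance over the 4 arrays, among probe sets above the floor on at least as many arrays; not every one is printed. Alternatives were the values as deposited, quantile normalization, floors at the 20th and 60th percentile, a 3-fold threshold, no intensity trend, and the tested factor alone. A change of over 1.5 times counted as moved.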

Additional observations from a re-analysis of the deposited data

Results flagged for a closer look

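With bleomycin AT3G01830 was higher in wild type (log2 1.18) and lower in ku80 (-1.78). CML42 had the same signs, at 0.44 in wild type and -1.20 in ku80, and its wild type difference was under 2-fold and near the median absolute difference of all probe sets (0.41). On the log2 scale the ku80 response minus that of wild type was -2.97 for AT3G01830 and -1.65 for CML42. With 1 array per group this difference was not tested, and both genes were chosen with these arrays in view.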

How the results depend on the processing

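Of 80 recomputed differences of the 4 genes, 76 stayed within 1.5 times of the value given and 0 called values turned sign. The 4 that moved came with the floor at the 60th percentile: with bleomycin CML30 was then at -0.26 in wild type and 0.00 in ku80, and CML43 at 0.00 in both. A difference under 1.5-fold could fall to 0.00 and still count as within the limit, so the 76 say little about small differences. Between treated genotypes this held for CML30 (0.48 to 0.00) and CML43 (0.31 to 0.00) with the floor at the 60th percentile. Over the alternatives AT3G01830 ranged from -3.09 to -2.77 and CML42 from -1.10 to -1.02 for ku80 against wild type under bleomycin. List counts were small. With bleomycin in wild type the 5 higher became 3 at 3-fold, and the 2 lower became 1 under quantile normalization and with the 60th percentile floor, and 0 at 3-fold. In ku80 the 2 lower became 1 with that floor and at 3-fold. Between untreated genotypes the 1 higher became 0 with that floor and at 3-fold, and the 0 lower became 1 with the 20th percentile floor. Between treated genotypes the 0 higher became 1 on the deposited values and 2 with the 20th percentile floor, and the 2 lower became 1 under quantile normalization and at 3-fold. For the difference of responses (alternatives chosen after seeing the data) the 0 at 1 or higher became 1 on the deposited values, under quantile normalization and with the 20th percentile floor, and the 6 at -1 or lower became 2 at 3-fold. In limma the 1 list gene that rose with bleomycin became 3 with the 60th percentile floor and 0 under quantile normalization, without the intensity trend and with the factor alone. The cause was not tested. Over all probe sets limma called 342 that rose and 704 that fell with bleomycin, against 74 and 101 under quantile normalization, 146 and 321 without the trend, and 0 with the factor alone (2681 at an unadjusted p under 0.05). For genotype it called 22 and 16, against 69 and 50 with the 60th and 13 and 6 with the 20th percentile floor, 19 and 11 on the deposited values, 1 and 0 without the trend, and 0 under quantile normalization and with the factor alone (888 and 288 at an unadjusted p under 0.05). No list gene had more than 1 probe set, so averaging probe sets was not run. No paired analysis by replicate number was possible because each group was 1 array; the additive fit itself compares treated with untreated within genotype. The promoter search was not run, as no promoter sequence was used here. Signals near the floor limit CML30 and CML43 most.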
